A study of Mus musculus and Sus scrofa with 30 samples.

Results

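Porcine dedifferentiated fat (DFAT) cells treated with magnolol were compared with the same cells given vehicle. The members were chosen by treatment label alone: the 3 magnolol and 3 vehicle libraries of the DFAT table, 6 of the 30 RNA-seq libraries of the study. The study treated these pig cells and the mouse preadipocyte line 3T3-L1 with vehicle, dicoumarol, magnolol, dicoumarol together with magnolol, or rosiglitazone, and the series title places the compounds in food production as enhancers of fat cell formation. Both groups here were DFAT cells from subcutaneous fat, for which the labels give no genotype, breed or animal, harvested on day 5 of induction. The induction medium, the same for both, contained 2% serum, the antimicrobial Primocin, 2 mM GlutaMAX, the vitamins biotin (20 µM) and pantothenate (10 µM), the glucocorticoid dexamethasone at 0.5 µM and the phosphodiesterase inhibitor IBMX at 12.5 µM. The vehicle group received DMSO and the other group magnolol, whose dose is not stated in the labels. The labels number the replicates without saying whether they were separate cultures or came from more than 1 animal, so the p-values measure the spread between these libraries, which may be technical.

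DFAT cells are mature fat cells that have been cultured until they lose their lipid and divide again as fibroblast-like cells, and they can be induced to refill with fat. In such cells PPARγ (gene PPARG) and C/EBPα (CEBPA) switch on the genes of lipid uptake, triglyceride storage and adiponectin secretion, while the fibroblast programme of collagen, contractile fibres and integrins usually gives way. Magnolol is a biphenyl lignan of magnolia bark that has been described as a ligand of PPARγ and of RXR, and rosiglitazone is a synthetic PPARγ agonist. NRF2, which controls antioxidant and quinone-reducing enzymes such as NQO1, is another pathway on which plant phenols are often studied.

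The table holds 34307 pig genes, of which 14819 passed a minimum mean normalized count of 10 over the 15 DFAT libraries and were tested. Estimated depth was 57.8 to 70.1 M reads in the vehicle and 63.4 to 67.4 M in the magnolol libraries. Counts were more concentrated with magnolol: the top 10 genes held 20.19% to 23.62% of them against 16.95% to 17.82% with vehicle, and mitochondrial genes 10.54% to 12.86% against 9.58% to 10.24%. The part of this shift in the results was not tested. Markers of several other cell types were low in all 6 libraries, while those of smooth muscle and pericytes (72887 to 126798 summed, mostly ACTA2) were not. Summed over their lists, the low ones had 5.07 to 13.2 normalized counts for epithelial, 0 to 3.01 for erythroid, 77.9 to 135.5 for leukocyte and 502.7 to 729.2 for endothelial genes, and stromal progenitor markers such as PDGFRA (45166 to 65376) were abundant. The cells therefore carried stromal markers in both groups, as their label says. Each fold change is a difference of log2(normalized count + 1), so that changes of low genes come out too small, and SE is its standard error in limma's moderated test.

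Magnolol raised 438 genes and lowered 188 at a limma adjusted p under 0.05, which is 2.96% and 1.27% of the genes tested and 4.22% in all. Of these, 82 rose and 5 fell at least 2-fold, and the median log2 change was 0.54 among the rises and -0.33 among the falls. The rises were therefore larger as well as more numerous, and the median over all tested genes was -0.007. All 626 called genes separated the magnolol from the vehicle libraries, as did 21.9% of all tested genes. The number and split of the calls depended on the scaling. When each library was rescaled to the same total without its 10 most abundant genes, 366 genes were higher and 561 lower, so the share of higher calls went from 70.0% to 39.5%. The count was 413 without magnolol replicate 3 and 400 without vehicle replicate 1. None of the 106 named genes that passed changed direction under any of these settings.

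**Figure D1:**
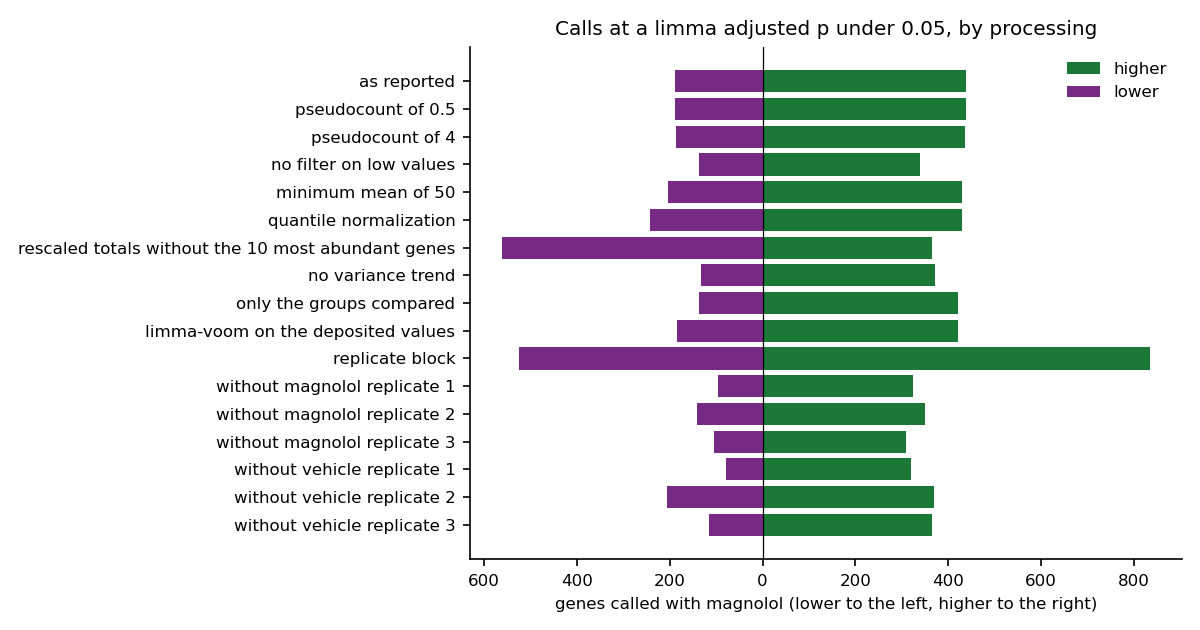
Number of genes called higher (right, green) and lower (left, purple) with magnolol under each processing, at a limma adjusted p under 0.05. Rises outnumber falls in all settings plotted other than the rescaled totals, which gave 366 higher and 561 lower, and the replicate block gave the most calls (834 higher, 526 lower).

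The adipocyte programme was the first large group of rises. All gene lists used here were chosen with earlier results of these data known, so counts of their members are descriptions. Of 17 tested adipocyte markers 13 rose and none fell, with a median log2 change of 1.42, and their summed level went from 20187 to 22705 normalized counts with vehicle to 42844 to 50634 with magnolol. Much of this sum was LPL, at 15527, 14288 and 17096 with vehicle and 21237, 25556 and 26910 with magnolol. In bulk RNA, more fat-storing cells and more adipocyte RNA per cell cannot be told apart. Adiponectin (ADIPOQ, chromosome 13, 124633685 to 124646646), the hormone that mature fat cells secrete, stood at 23.7, 42.0 and 19.4 normalized counts in the vehicle libraries and at 1176, 1521 and 1868 with magnolol. All 3 magnolol libraries lay far above all 3 vehicle libraries, and the log2 change of 5.75 (SE 0.22, limma adjusted p 1.3e-11) was the largest among the named genes.

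Lipid droplet genes followed. Several genes of this and the next lipid lists are also adipocyte markers, among them PLIN1, CD36, DGAT2, LIPE and PCK1, so these counts overlap. Of 10 tested genes of droplet coats and droplet growth 6 rose and none fell (median 0.76). Perilipin 1 (PLIN1, chromosome 7, 55236348 to 55250797), which coats the droplet and gates lipolysis, was at 130.2, 155 and 135.4 with vehicle and at 1872, 2332 and 2144 with magnolol, a log2 change of 3.90 (SE 0.11, limma adjusted p 1.68e-13). Perilipin 4 (PLIN4) had 217.3, 218.6 and 177.2 with vehicle and 2279, 2473 and 2083 with magnolol. CIDEC, which fuses droplets into larger ones, had 385.5, 289.5 and 302.4 with vehicle and 730.6, 834.4 and 791.3 with magnolol. The groups did not overlap for any of these genes, but their sizes were unequal: CIDEC rose by 1.28 (SE 0.14, limma adjusted p 1.87e-05) on the log2 scale and PLIN2, the droplet coat of many non-fat cells, by 0.38 (SE 0.07, limma adjusted p 0.00238).

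Genes for bringing fatty acids into the cell rose in 8 of 16 cases and fell in none (median 0.31). CD36, the fatty acid translocase, had 1901, 1787 and 1785 normalized counts with vehicle and 7840, 9086 and 9453 with magnolol (log2 2.26, SE 0.10, limma adjusted p 1.04e-10). The fatty acid binding proteins FABP3 and FABP4 rose by 2.18 and 1.42, and AQP3, a channel for water and glycerol, by 2.58. Lipoprotein lipase (LPL) rose by 0.65 and the acyl-CoA synthetase ACSL1 by 0.32. Every one of these 6 genes was higher in each magnolol library than in any vehicle library.

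Steps further down the lipid pathway changed at single genes rather than throughout. Of 13 triglyceride synthesis genes only DGAT2, which adds the last acyl chain, passed: its levels were 527.6, 380.1 and 307.5 with vehicle and 1839, 2043 and 1717 with magnolol (log2 2.23, SE 0.14, limma adjusted p 2.03e-08), while the other 12 lay between -0.16 and 0.38. Of 11 lipolysis genes 2 rose, led by hormone-sensitive lipase LIPE (404.1, 425.9 and 313.6 against 1254, 1372 and 1162; log2 1.73), and 1 of them passed without any 1 library other than vehicle replicate 3. Among 17 fatty acid synthesis genes 4 rose and 1 fell, and the median was -0.08. THRSP, a lipogenic regulator of fat and liver, rose by 2.78 and the elongase ELOVL6 by 0.65, whereas all 12 members that did not pass lay between -0.34 and 0.15. PCK1, an enzyme of the route from pyruvate to glycerol 3-phosphate for triglyceride, was at 12.7, 24.3 and 4.07 with vehicle and at 211.8, 210.2 and 130.5 with magnolol (log2 3.91, SE 0.49, limma adjusted p 7.38e-05). The insulin-regulated glucose transporter GLUT4 (SLC2A4) was nearly absent with vehicle (2.54, 4.67 and 2.04) and present with magnolol (56.2, 52.1 and 33.7), and TRARG1, which helps its traffic, rose by 0.99.

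PPARG and CEBPA, which direct this programme, moved little. PPARG had 968.9, 909.7 and 901.2 normalized counts with vehicle and 1138, 1251 and 1149 with magnolol, a rise of 0.35 (SE 0.07, limma adjusted p 0.00539). CEBPA had 454.9, 517.4 and 401.2 against 482.7, 639.8 and 488.2, overlapping, with a log2 difference of 0.23 (SE 0.14, limma adjusted p 0.461). Over 25 adipogenic transcription factors and nuclear receptors 1 rose, 2 fell and the median was -0.05, and one of the falls was CEBPD, an early factor of induction (-0.30, limma adjusted p 0.00718). The other fall was EBF1 (-0.27, limma adjusted p 0.00758), whose adjusted p was 0.0585 without vehicle replicate 1. The 22 members that did not pass lay between -0.57 and 1.79.

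Genes of mitochondrial oxidation did not rise with the storage genes. None of 23 mitochondrial fatty acid oxidation genes, 18 citric acid cycle genes, 22 branched-chain amino acid breakdown genes and 45 nuclear-encoded respiratory chain genes rose. Their medians were -0.07, -0.06, -0.10 and -0.10, and 1, 0, 2 and 1 fell. ALDH6A1, a mitochondrial enzyme of valine breakdown, fell by 0.39 on the log2 scale (1944, 2008 and 2086 against 1493, 1627 and 1501; limma adjusted p 0.00294). The calls in these lists were too few to read against 1.27%. With 1 library left out, each of these lists had 0 to 3 calls. Of 22 peroxisomal genes 2 rose, ACAA1 (0.28) and PEX11A (0.45), and 1 fell. ACAA1 lost its call without magnolol replicate 1 or 2 or vehicle replicate 3. PEX11A lost it without magnolol replicate 2 or vehicle replicate 1 or 2.

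**Figure D2:**
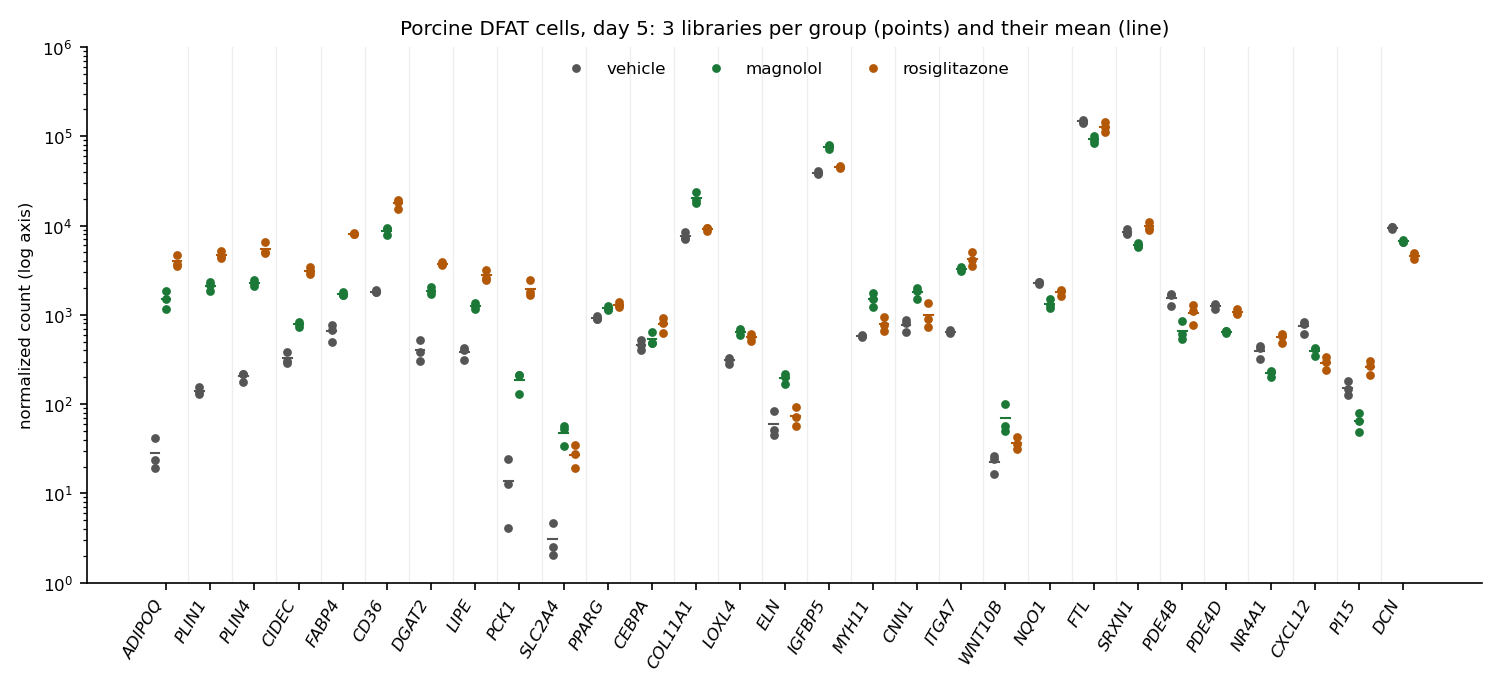
Normalized counts on a log axis of 29 genes in each vehicle (grey), magnolol (green) and rosiglitazone (orange) library of DFAT cells, with a line at the mean of the 3 libraries. ADIPOQ, PLIN1 and PLIN4 rise by more than 10 times with magnolol, COL11A1 and IGFBP5 are higher with magnolol than with either other group, and CEBPA overlaps between vehicle and magnolol.

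The second large group of rises was the extracellular matrix. Of 21 tested collagen chain genes 11 rose and none fell (median 0.56), and their summed level went from 3837555 to 4155240 normalized counts with vehicle to 5567059 to 6473429 with magnolol. COL11A1 (chromosome 4, 115634172 to 115840708), a minor fibrillar chain that nucleates collagen fibrils, had 7009, 7249 and 8375 with vehicle and 19298, 17980 and 23583 with magnolol (log2 1.42, SE 0.12, limma adjusted p 7.3e-07). COL15A1, a basement membrane chain, went from 46373, 47778 and 48489 to 86470, 83566 and 98249 (log2 0.91), and COL5A1 from 174253, 170394 and 158299 to 320130, 264526 and 319796 (log2 0.84). COL8A1 rose by 0.59 and COL12A1 by 0.74. Of the 10 members that did not pass, the values ran from -0.33 to 0.56. These are among the most abundant genes of the libraries, and with quantile normalization 7 collagen genes passed and the list's median was 0.20.

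Enzymes that fold, trim and crosslink collagen rose as well, 9 of 21 with none lower (median 0.28). LOXL4, a lysyl oxidase that crosslinks fibrils, had 331.4, 313.8 and 281 with vehicle and 659.3, 593.1 and 694.5 with magnolol (log2 1.07, SE 0.09, limma adjusted p 1.11e-06), and LOXL3 rose by 0.74. The collagen prolyl hydroxylase subunits P4HA3 and P4HA2 rose by 0.61 and 0.37, and the galactosyltransferase COLGALT1 by 0.42. Of 23 elastic fibre and matrix glycoprotein genes 5 rose and none fell (median 0.31, or 0.16 with 4 called under quantile normalization). Elastin (ELN) was low, at 44.8, 83.1 and 50.9 with vehicle and 166.6, 214.8 and 203.1 with magnolol (log2 1.74, SE 0.22, limma adjusted p 8e-05), while tenascin C (TNC) and the latent TGF-beta binding protein LTBP2 were abundant and rose by 0.87 and 0.68.

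Small leucine-rich proteoglycans, which bind to collagen fibrils, divided: of 11, 3 rose and 2 fell. PRELP had 1713, 1766 and 1968 with vehicle and 2774, 3373 and 3301 with magnolol (log2 0.79), and ASPN rose by 0.58. Decorin (DCN), a marker of stromal fibroblasts, had 9261, 9641 and 9612 with vehicle and 6483, 6535 and 6902 with magnolol, a fall of 0.52 on the log2 scale (SE 0.06, limma adjusted p 7.38e-05). The stromal progenitor marker list, which holds DCN, also divided, with 3 of its 12 tested genes higher and 3 lower.

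Contractile and adhesion genes were also higher. All 23 tested contractile and YAP/SRF target genes had a log2 change above 0, 12 passed and the median was 0.40. Smooth muscle myosin MYH11 (chromosome 3, 7002735 to 7143095) had 561.1, 594.3 and 575.3 with vehicle and 1238, 1488 and 1750 with magnolol (log2 1.36, SE 0.14, limma adjusted p 9.09e-06). Calponin CNN1 had 646.8, 801.4 and 881.8 against 1518, 1984 and 1858 (log2 1.20), and the gamma smooth muscle actin ACTG2 8607, 8948 and 10357 against 16354, 18767 and 19303 (log2 0.96). ANKRD1, a target of YAP, rose by 1.20, the kinase gene MYLK by 0.75 and the receptor AXL by 0.50. The count of 12 was 7 without magnolol replicate 3, 6 without vehicle replicate 1 and 7 with no filter on low values.

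In the same libraries 5 of 8 smooth muscle and pericyte markers rose, MYH11 and CNN1 again among them. Their summed level was 72887 to 87589 with vehicle and 121469 to 126798 with magnolol. Most of it was the actin ACTA2 (55633, 55159 and 70716 against 88398, 94953 and 92836; log2 0.62, limma adjusted p 0.0126). ACTA2 was not called without vehicle replicate 1 or 2, with no filter on low values or with quantile normalization. CSPG4, the pericyte proteoglycan NG2, went from 3684, 3200 and 3398 to 9350, 8044 and 9893 (log2 1.41, SE 0.07, limma adjusted p 9.3e-10), and NOTCH3 rose by 0.60. A defining pericyte marker, RGS5, did not pass (-0.89). The part of a cell type in these contractile and matrix rises was not tested.

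A list of 20 integrin genes was written after the values were seen, so its count is a description. Of 17 tested, 12 rose and none fell (median 0.52). ITGA7 (chromosome 5, 21126571 to 21148776), a laminin receptor subunit of muscle, had 640, 668.7 and 631.4 with vehicle and 3135, 3419 and 3268 with magnolol (log2 2.34, SE 0.09, limma adjusted p 1.3e-11). The vitronectin receptor subunit ITGB3 had 1201, 1436 and 1637 against 2359, 3100 and 3803 (log2 1.10), and the fibronectin receptor subunit ITGA5 rose by 0.70. Each of these 3 genes separated the groups.

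**Figure D3:**
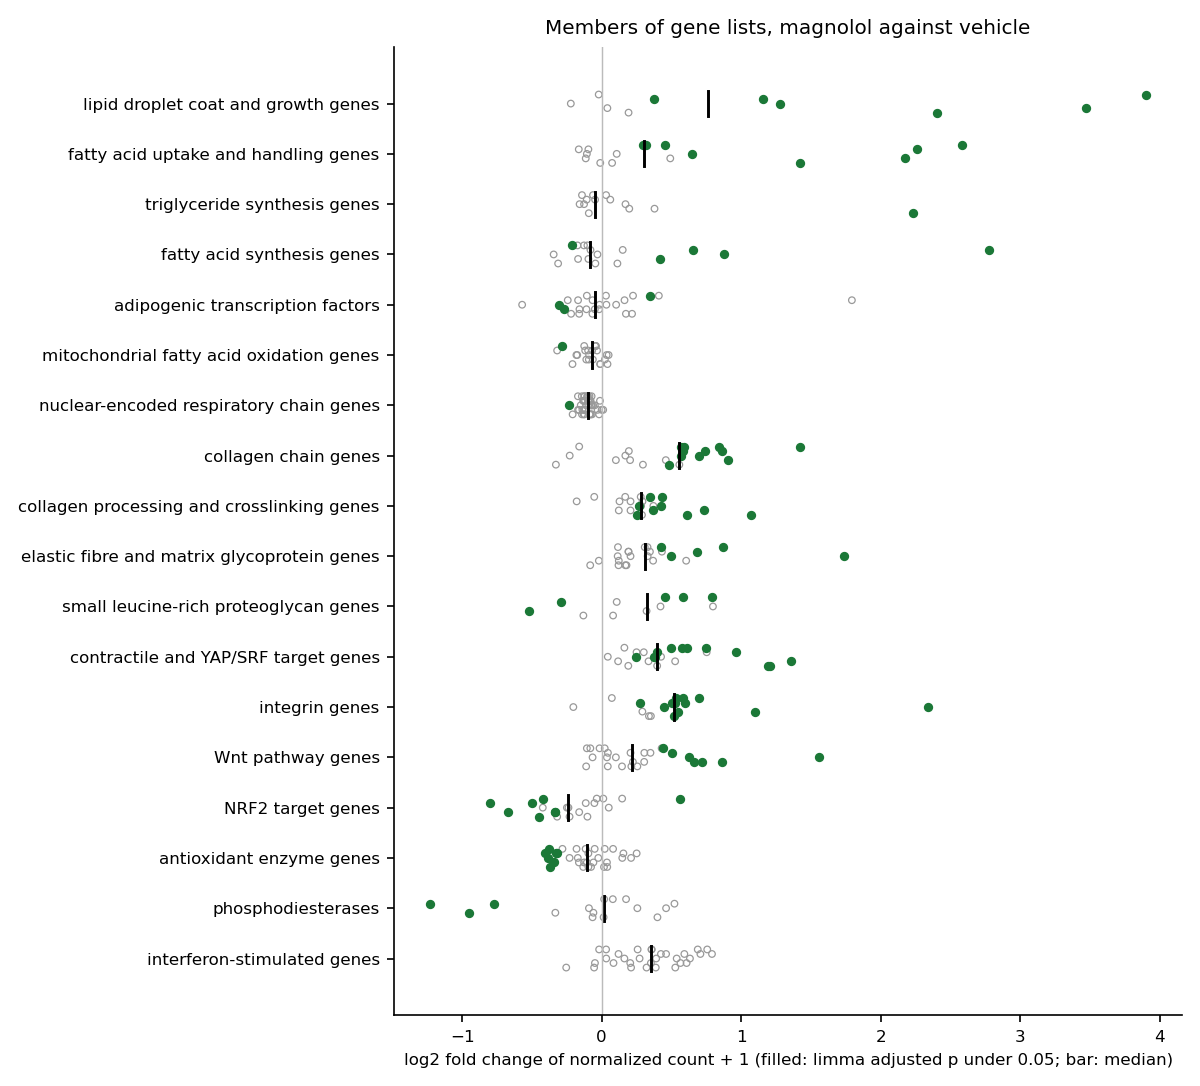
Log2 fold change of each tested member of 18 gene lists, magnolol against vehicle (filled green: limma adjusted p under 0.05, open: not passed, black bar: the list's median). Droplet, uptake, matrix, contractile and integrin lists have medians right of 0. They are 0.76, 0.56, 0.40 and 0.52 for droplet, collagen chain, contractile and integrin genes. The medians of triglyceride and fatty acid synthesis genes are -0.05 and -0.08, and that of the NRF2 list is -0.24.

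Secreted signals and their modulators included both directions. Of 26 Wnt pathway genes 7 rose and none fell (median 0.22). WNT10B, a ligand that holds preadipocytes undifferentiated, had 24.5, 26.2 and 16.3 normalized counts with vehicle and 50.2, 57.6 and 101 with magnolol (log2 1.56, SE 0.26, limma adjusted p 0.0014), a low gene with the groups apart. The secreted Wnt binders SFRP2 (6106, 5979 and 6438 against 10136, 9302 and 9183; log2 0.63) and SFRP4 (0.72) rose, as did DKK2 (0.86) and the cell cycle target CCND1 (0.50). Of 29 TGF-beta and BMP pathway genes 5 rose and 1 fell, and the median was -0.03; these 6 calls were 3 without magnolol replicate 2 or 3 or vehicle replicate 3. The ligand TGFB3 had 538.6, 494.1 and 525.4 with vehicle and 927.3, 843.6 and 909.1 with magnolol (log2 0.78, limma adjusted p 1.87e-05), and the activin subunits INHBA and INHBB rose by 0.78 and 0.39. IGFBP5 (chromosome 15, 118857625 to 118878120), an insulin-like growth factor binding protein deposited in matrix, went from 39082, 40974 and 37533 to 78939, 72934 and 78522 (log2 0.97, SE 0.08, limma adjusted p 6.78e-07), while IGF1 fell by 0.38 on the log2 scale.

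Retinoid genes handle vitamin A and its acid, a ligand of nuclear receptors that pair with RXR. Of 13 tested 3 rose and 1 fell. RBP5, a cellular retinol binder, had 19.5, 22.4 and 17.3 with vehicle and 214.8, 228.5 and 197.8 with magnolol (log2 3.38, SE 0.17, limma adjusted p 7.5e-10). CRABP2, which carries retinoic acid to its nuclear receptor, had 672.1, 708.9 and 761.7 against 1375, 1537 and 1473 (log2 1.03), and CYP26B1, which breaks retinoic acid down, rose by 1.17. ALDH1A1, which makes retinoic acid, went from 21249, 23148 and 21873 to 14898, 16720 and 14441, a fall of 0.53 on the log2 scale (limma adjusted p 0.000578). Of 12 LXR and RXR targets 2 rose, CYP26B1 and the apolipoprotein APOE (1.15), and none of 23 cholesterol synthesis and uptake genes passed (median -0.06).

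The clearest group of falls was the NRF2 target list, of which 7 of 21 fell and 1 rose, against 1.27% of all genes lower, with a median of -0.24. The list was chosen with earlier results known, so its count is a description. NQO1 (chromosome 6, 17292770 to 17302590), the quinone reductase that dicoumarol inhibits, had 2229, 2305 and 2328 normalized counts with vehicle and 1185, 1499 and 1278 with magnolol (-0.80, SE 0.08, limma adjusted p 5.52e-06). SRXN1, which repairs peroxiredoxins, had 8284, 8061 and 9186 against 5893, 6387 and 5813 (-0.50), and GCLC, the catalytic subunit of glutathione synthesis, 3382, 3348 and 3407 against 2543, 2341 and 2690 (-0.42). TXNRD1, a thioredoxin reductase, and PGD, which makes NADPH, changed by -0.45 and -0.34. The ferritin light chain FTL went from 153790, 146339 and 140841 to 91981, 101928 and 83725 (-0.67, SE 0.11, limma adjusted p 0.000864), and reads of such a gene can be shared with near-identical copies. In each of these 6 genes every magnolol library was below every vehicle library. MGST1, a microsomal glutathione transferase that is also raised in fat cells, was the 1 rise (0.56).

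Catalase (CAT), the peroxisomal enzyme that removes hydrogen peroxide, moved with them: 30858, 29123 and 29359 with vehicle and 20876, 24295 and 22271 with magnolol (-0.41, SE 0.07, limma adjusted p 0.00125). In a list of antioxidant enzymes written after the values were seen, 7 of 31 fell and none rose (median -0.11), among them PTGR1 (-0.35). This count was 2 without magnolol replicate 3 and 2 without vehicle replicate 1, 4 without any 1 of the other 4 libraries, and 2 with no filter on low values or with no variance trend. Of 27 integrated stress response genes 2 rose and 1 fell, and neither rise was called without magnolol replicate 1 or vehicle replicate 3, with no filter on low values or with no variance trend. The fall was NUPR1, a stress-induced chromatin protein (6938, 7812 and 6722 against 4798, 5249 and 3773; -0.65, limma adjusted p 0.00211), and among 20 endoplasmic reticulum chaperones 1 passed, a call lost without any 1 library other than magnolol replicate 2.

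Phosphodiesterases that break down cAMP formed another set of falls, in cells whose medium contained a phosphodiesterase inhibitor in both groups. Of 15 tested, 3 fell and none rose, and the median of the list was 0.01, so the change lay in single genes. PDE4D (chromosome 16, 37897302 to 39306364) had 1299, 1171 and 1308 with vehicle and 661.4, 628.8 and 659.7 with magnolol (-0.95, SE 0.08, limma adjusted p 8.09e-07). PDE4B had 1676, 1721 and 1255 against 609.2, 852.7 and 538.7 (-1.23, SE 0.23, limma adjusted p 0.00387), and PDE7B 1361, 1562 and 1325 against 734.6, 946.8 and 807 (-0.78). All 3 separated the groups. The orphan receptor NR4A1, an immediate early gene of cAMP signalling, fell from 443.9, 321.3 and 422.6 to 231.8, 201.1 and 235.7 (-0.82, limma adjusted p 0.00118), but over 24 cAMP-responsive and immediate early genes 1 rose, 1 fell and the median was -0.09. The rise was ADCY7, an adenylyl cyclase (0.46).

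The other falls by the naming rule came from several pathways. PI15 (chromosome 4, 61114497 to 61142811), a secreted protease inhibitor, had 181.8, 125.2 and 146.6 with vehicle and 48.2, 79.5 and 64.2 with magnolol (-1.24, SE 0.20, limma adjusted p 0.000962). The chemokine CXCL12 had 829.4, 781.7 and 614 against 412.5, 425 and 344.1 (-0.91), and the interleukin 1 receptor IL1R1 changed by -0.40. FAM20A, a pseudokinase of secreted protein phosphorylation, changed by -0.86, the tyrosine-breakdown enzyme FAH by -0.81 and the synaptic organiser CBLN4 by -0.75. SULT1A3, a phenol sulfotransferase, had 1295, 1230 and 1024 against 712.5, 623.3 and 489.3 (-0.97, SE 0.19, limma adjusted p 0.00484), in a gene family whose copies can share reads. NRCAM (-0.89, limma adjusted p 0.0205) was not called without magnolol replicate 2 or 3 or without vehicle replicate 1 or 3.

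Some lists had no call at all. None of 31 interferon-stimulated genes passed although 27 were above 0 and the median was 0.36, which was 0.12 without magnolol replicate 2. None of 29 cell cycle genes passed (median 0.17), and 1 did without magnolol replicate 1 or 2. Of 19 glucocorticoid targets 2 fell, CEBPD and the kinase SGK1 (3613, 4303 and 3471 against 2547, 3016 and 2522; -0.49, limma adjusted p 0.00587), in a medium with dexamethasone in both groups.

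The comparison with rosiglitazone asks where the magnolol response differs from that of a PPARγ agonist in the same cells. It was made directly between the 3 magnolol and 3 rosiglitazone libraries, and the labels state no dose for either compound. Limma called 1934 genes (13.1% of those tested), 1024 higher (6.91%) and 910 lower (6.14%) with magnolol. With the replicate number as a block, the count was 3031, 1532 higher and 1499 lower. Same-numbered libraries of these groups deviated together (correlations 0.144 to 0.268), but the labels do not say that the number pairs them. The genes and lists below come from the fit without this block. With rescaled totals the count was 2477, of which 33.0% were higher in place of 52.9%. A fit to these 2 groups alone gave 1172.

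Adipocyte genes were lower with magnolol than with rosiglitazone. Of 17 adipocyte markers 12 were lower and none higher, with a median difference of -1.01. The size was unequal between genes: ADIPOQ differed by -1.40, PLIN1 by -1.15, LIPE by -1.12 and CD36 by -1.01, but FABP4 by -2.24, CIDEC by -1.99, TRARG1 by -1.97 and PCK1 by -3.42. FABP4 averaged 650.9, 1717 and 8092 normalized counts with vehicle, magnolol and rosiglitazone. Of the peroxisomal list, 4 of 22 were lower with magnolol and 1 higher, with PEX11A, which divides peroxisomes, at -1.06. PPARG itself did not differ beyond the spread (-0.14, limma adjusted p 0.223), nor did SLC2A4 (0.79, limma adjusted p 0.14).

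Matrix genes were higher with magnolol than with rosiglitazone. Of 21 collagen chain genes 15 were higher and none lower (median difference 0.59), and of the processing enzymes 13 of 21 and of the elastic fibre and glycoprotein genes 13 of 23 were higher, none lower. COL11A1 averaged 7545, 20287 and 9171 normalized counts with vehicle, magnolol and rosiglitazone, a difference of 1.14 between the compounds (limma adjusted p 4.02e-06). P4HA3, SFRP2, CRABP2 and IGFBP5 differed by 0.69, 1.17, 0.77 and 0.77. Not all did: COL15A1 (0.16, limma adjusted p 0.251), TNC (-0.02, limma adjusted p 0.935) and TGFB3 (-0.04, limma adjusted p 0.841) did not pass, nor did LOXL4 (0.21, limma adjusted p 0.163). Of 23 contractile genes 6 were higher with magnolol, MYH11 (0.90) and CNN1 (0.88) among them, and ANKRD1 did not pass (-0.11). Against vehicle, the median of this list was 0.32 with rosiglitazone and 0.40 with magnolol, so both compounds went with a rise. Of 17 integrin genes 11 were higher with magnolol than with rosiglitazone and 1 was lower, ITGA7 (-0.36, limma adjusted p 0.012). NRF2 targets were lower with magnolol than with rosiglitazone in 13 of 21 cases and higher in 1 (median -0.25), with NQO1 at -0.45 and SRXN1 at -0.69. PDE4D (-0.73), PI15 (-2.02) and NR4A1 (-1.32) were also lower with magnolol, whereas PDE7B did not differ beyond the spread (0.05).

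**Figure D4:**
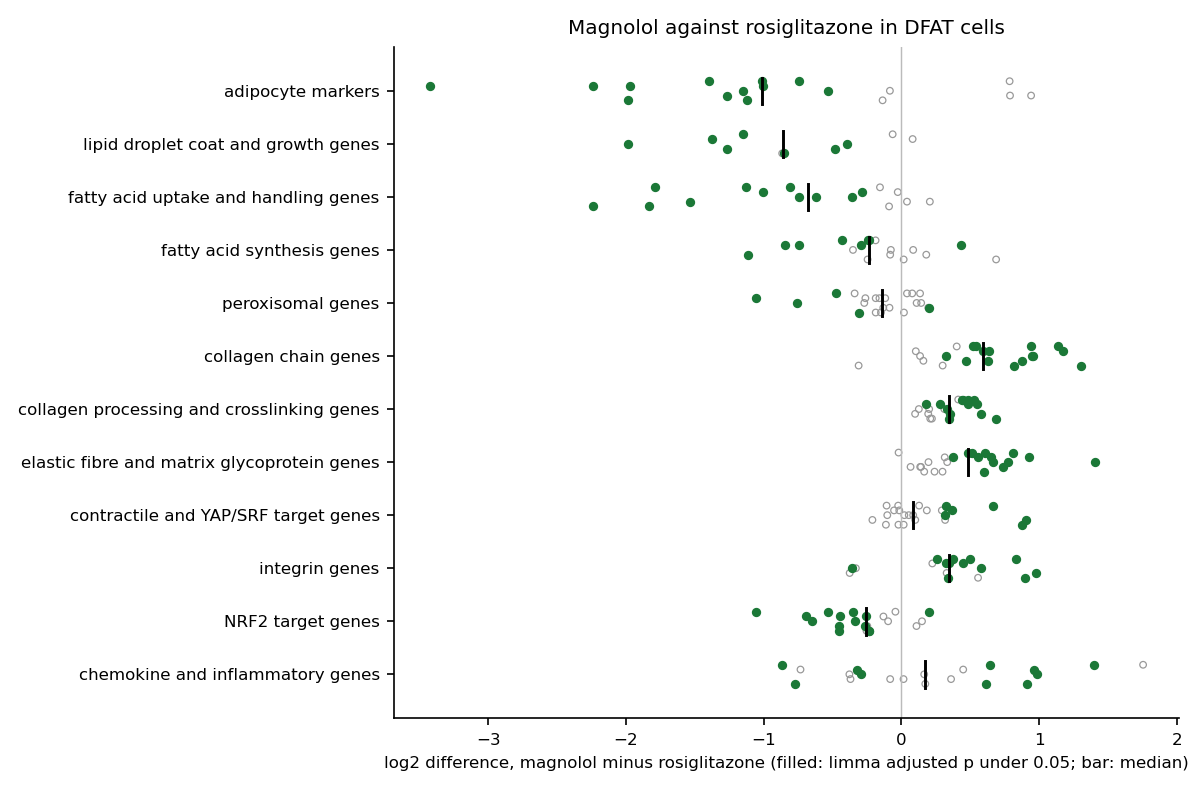
Log2 difference between magnolol and rosiglitazone libraries of DFAT cells for each tested member of 12 gene lists (filled green: limma adjusted p under 0.05, black bar: median). The adipocyte markers lie mostly left of 0 (median -1.01) and the collagen chain genes right of it (0.59), with the contractile genes near 0 (0.09).

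Magnolol in 3T3-L1 cells shows which changes were shared between the pig and mouse systems. The systems differ in species, medium, serum, inducer doses and added insulin (3T3-L1 alone), differences that cannot be told apart from that of the cell type. The labels state no magnolol dose for either system, so the doses may differ as well. Magnolol changed 193 mouse genes (1.23%) in the fit without a block. Same-numbered 3T3-L1 magnolol and vehicle libraries deviated together (correlations 0.236 to 0.407), so the number may pair them, although the labels do not say so. With the number as a block 780 mouse genes passed (4.96%). Over 9368 symbols tested in both tables, the effect of magnolol differed at 498 (5.32%) by the normal distribution fixed in the design, and at 267 (2.85%), 120 more positive and 147 more negative in DFAT, with 20 degrees of freedom. With the 3T3-L1 block these counts were 1004 by the normal distribution and 641 (6.84%) with 18 degrees of freedom. The genes named here as differing passed both tests without the block. Of 433 genes called in DFAT with a mouse match, 26 were also called in 3T3-L1 and 116 differed between the systems with 20 degrees of freedom, which were 75 and 202 with the 3T3-L1 block. Without 3T3-L1 magnolol replicate 1 the count of 498 was 293.

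The effect differed between the systems in members of matrix, adhesion, oxidation and NRF2 lists. Of 19 matched collagen chain genes the median log2 effect was 0.57 in DFAT and -0.05 in 3T3-L1, and 9 differed (10 with the 3T3-L1 block). Of 21 matched contractile genes the medians were 0.40 and -0.18, with 4 differing (10 with the block), and of 13 matched integrins 0.54 and -0.14, with 6 (7 with the block). Citric acid cycle genes had medians of -0.06 and 0.32, with 6 of 17 differing (13 with the block), fatty acid oxidation genes -0.07 and 0.25, with 7 of 22 (12), and branched-chain amino acid breakdown genes -0.10 and 0.24, with 5 of 22 (10). COL11A1 changed by 1.42 in DFAT and -0.16 in 3T3-L1, a difference of 1.58 (SE 0.18, adjusted p 9.24e-05 with 20 degrees of freedom beside limma's fits). P4HA3 changed by 0.61 and -0.69 and SFRP2 by 0.63 and -0.70. In 3T3-L1 SFRP2 passed limma's test without the block, and P4HA3 with it (limma adjusted p 0.00978). For NRF2 targets the matched medians were -0.23 and 0.11, with 6 of 18 differing (10 with the block), and NQO1 changed by -0.80 and -0.01.

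Several storage genes were raised in both systems, at unequal sizes, but not all storage lists were. Matched medians in DFAT and 3T3-L1 were 0.28 and 0.47 for droplet genes and 0.20 and 0.36 for uptake genes. They were -0.01 and 0.36 for triglyceride synthesis, with 3 of 12 differing (5 with the block). For lipolysis they were 0.07 and 0.80, with 3 of 10 (5), and for fatty acid synthesis -0.095 and 0.25, with 3 of 15 (5). Among single genes, PLIN1 rose by 3.90 in DFAT and 3.06 in 3T3-L1, DGAT2 by 2.23 and 2.21, LIPE by 1.73 and 1.66 and THRSP by 2.78 and 2.80. None of these 4 differed beyond the error without the block. With the 3T3-L1 block the difference of PLIN1 passed (0.84, SE 0.20, adjusted p 0.0151 with 18 degrees of freedom beside limma's fits) and the other 3 did not. ADIPOQ rose more in DFAT (by 2.87, SE 0.57) and so did PLIN4 (by 2.79, SE 0.16), while CIDEC and ACSL1 rose more in 3T3-L1, with differences of -2.71 and -1.97. ALDH6A1 fell in DFAT (-0.39) and rose in 3T3-L1 (0.66).

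**Figure D5:**
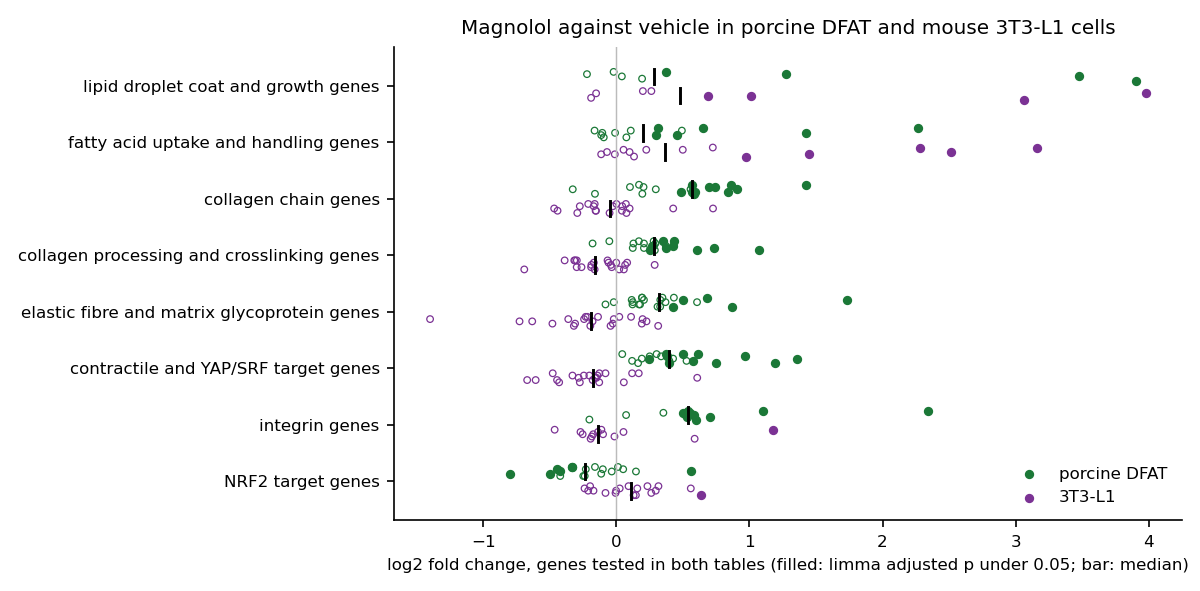
Log2 effect of magnolol for list members tested in both tables, in porcine DFAT cells (green) and mouse 3T3-L1 cells (purple), filled where limma's adjusted p was under 0.05, with a bar at each median. The medians of droplet and uptake genes lie right of 0 in both systems, while collagen chain medians are 0.57 and -0.05 and contractile medians 0.40 and -0.18.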

How the data were processed

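RNA-seq libraries of 3 magnolol, 3 vehicle and 3 rosiglitazone DFAT samples, and of 3 magnolol and 3 vehicle 3T3-L1 samples, were used, grouped by their titles. The authors deposited 1 table per cell system whose signal values are gene counts scaled by the size factors of DESeq2. Per the submitters' processing notes, bcl2fastq 2.19.1.403, STAR and DESeq2 were used. The notes name a mouse build, while neither the pig build nor the read counter is given in the sources used here, so coordinates are printed as deposited. Of low values, up to 20 reads, about 90% in DFAT and 81.2% to 81.9% in these 3T3-L1 libraries gave whole reads within 0.02. Reads were therefore not recovered and no count test was run.

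Values were fitted as log2(value + 1) with limma 3.58.1 in R 4.3.3, with all 15 DFAT libraries sharing the spread, a minimum mean of 10 and Benjamini-Hochberg adjustment at 0.05. Python 3.11.15 with pandas 2.3.3, numpy 2.4.6, scipy 1.17.1 and matplotlib 3.10.9 did the rest. The tables were normalized separately, so only effects were compared between cell systems. On simulated data the normal distribution set for that comparison made too many calls, so named differences also had to pass with 20 degrees of freedom, chosen after seeing the data.

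Named genes were the 12 largest rises and falls with a symbol, a mean of at least 100, an adjusted p under 0.05 and no overlap, up to 4 called members with the smallest adjusted p of each pathway list, and PPARG, CEBPA and NQO1. Outside this rule, and chosen after their values were seen, are LPL, ACSL1, TXNRD1, PGD, MGST1, ITGA5, ITGB3, MYLK, ACTG2, ACTA2, CSPG4, NOTCH3, CTSC, CTSL, COL12A1, P4HA2, CCND1, SFRP4, PTGR1, RGS5 and PDGFRA. Members and lists were chosen with earlier results of these data known. Same-numbered DFAT magnolol and rosiglitazone libraries deviated together (correlations 0.144 to 0.268), as did those of 3T3-L1 magnolol and vehicle (0.236 to 0.407). The labels do not say that the number pairs them, so a pairing remains an assumption. A 3T3-L1 fit blocked on that number was added after seeing the data.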

Additional observations from a re-analysis of the deposited data

Results flagged for a closer look

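Of the 49 genes that lead the report, 41 had a match in 3T3-L1 cells, and for 14 the effect of magnolol differed between the cell systems by a test of the difference itself. The values below are the log2 effect in DFAT minus that in 3T3-L1. Among storage genes, PLIN4 differed by 2.79 and ADIPOQ by 2.87. Matrix, adhesion and signalling genes were more positive in DFAT: COL11A1 by 1.58, P4HA3 by 1.3, ITGA7 by 1.16, IGFBP5 by 1.65, SFRP2 by 1.33 and TGFB3 by 0.838. Of these, ITGA7 also rose in 3T3-L1 (1.17, limma adjusted p 0.0308), while the others were below 0 there. ELN differed by 3.14, which was 2.72 (adjusted p 0.0686 beside limma's fits) without 3T3-L1 magnolol replicate 1 and 2.4 (0.0774) without 3T3-L1 vehicle replicate 3. Genes more negative in DFAT were NQO1 at -0.792, PDE4D at -0.954, FAH at -1.0, ALDH6A1 at -1.04 and ACAA2, a mitochondrial thiolase, at -0.446. All 14 also passed with the replicate number as a block in the 3T3-L1 table. Species, medium and serum differ with the cell system and cannot be told apart from it, and the magnolol dose is stated for neither.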

How the results depend on the processing

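No called named gene changed sign under the settings run, but with rescaled totals falls outnumbered rises in the calls against vehicle (366 higher, 561 lower) and against rosiglitazone (817 higher, 1660 lower). Of 106 named genes called with magnolol against vehicle, 78 were called in all 16 other settings and 24 lost the call without 1 library. The 626 calls were 400 to 577 when 1 library was left out and 1360 with the replicate block, but same-numbered vehicle and magnolol libraries correlated at 0.00472 to 0.209, so the numbers were not taken to pair them. In 2 of 3 magnolol libraries the best match carried the same number. For DFAT magnolol against rosiglitazone the 1934 calls were 1358 to 2089 with 1 library left out, 3031 with the replicate block and 1172 with only the groups compared. For the magnolol effect in DFAT minus magnolol effect in 3T3-L1 the 498 calls were 293 to 513 with 1 library left out, 1268 with the replicate block in both tables, 1004 with it in the 3T3-L1 table alone, 267 with 20 degrees of freedom (the last 2 added after seeing the data) and, with rescaled totals, 681, of which 26.3% were more positive in DFAT in place of 43.2%. Apart from library composition and scaling, 3 libraries per group limit the precision, and the cause of these shifts was not tested.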

Other observations

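All 61 tested cytosolic ribosomal protein genes were below 0 with magnolol (median log2 change -0.21, from -0.27 to -0.10), and 51 separated the groups, against 21.9% of all tested genes, while 2 passed limma's test. That count was 0 without magnolol replicate 2 or 3 or vehicle replicate 1 or 3, 1 without magnolol replicate 1, 16 without vehicle replicate 2 and 22 with rescaled totals. All 13 protein genes of the mitochondrial genome were above 0 (median 0.28) and none passed, and with quantile normalization 11 were above 0 (median 0.07). Of 59 lysosomal genes 7 fell and 2 rose, and the falls included the proteases CTSC (-0.40) and CTSL (-0.49), and the 9 calls were 4 without magnolol replicate 1 and 5 without vehicle replicate 1 or 3. These 3 lists were written after the values were seen.

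Among the remaining pathway lists, adipokines and adiponectin receptors had 2 of 9 genes higher, glyceroneogenesis 2 of 12 higher and glucose uptake and insulin signalling 4 of 18 higher and 1 lower. Matrix proteases and inhibitors had 3 of 20 higher and 2 lower, chemokine and inflammatory genes 2 of 20 higher and 2 lower, and the insulin-like growth factor system 2 of 12 higher and 2 lower. Complement genes had 1 of 16 lower, xenobiotic enzymes 1 of 14 higher and 3 lower, and thermogenic genes 1 of 12 higher and 1 lower. Of all tested genes 2.96% were higher and 1.27% lower, and the counts in these lists are too few to read against those shares. Calls that small were often lost with 1 library left out: adipokines had 1 without any 1 library other than vehicle replicate 2, xenobiotic enzymes had 1 without vehicle replicate 1, and complement had 0 without magnolol replicate 3 or vehicle replicate 1. None of 3 tested skeletal muscle markers passed.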
